A study of Mus musculus with 3 samples.

Results

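The antigen receptor loci are the stretches of the genome that B and T lymphocytes rearrange to make their receptors. The open chromatin intervals of 4 such loci were described in mouse embryonic stem cells. Members were chosen by position alone: each listed interval whose midpoint lay in the bounds of a locus was taken, with no use of its score or width. In mm9 the immunoglobulin heavy chain locus (Igh) was bounded by positions 114300001 and 117400000 of chromosome 12. The immunoglobulin kappa light chain locus (Igk) ran from 67400001 to 70800000 of chromosome 6. The T cell receptor beta locus (Tcrb) lay at 40700001 to 41600000 of chromosome 6, and the joint T cell receptor alpha and delta locus (Tcra-Tcrd) at 52800001 to 55000000 of chromosome 14. These bounds held 897 of the 348759 intervals of the series: 268 in Igh, 293 in Igk, 40 in Tcrb and 296 in Tcra-Tcrd. No filter was applied, so all 897 are described.

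The cells were wild type embryonic stem cells of a 129Sv-C57Bl/6 background, grown without feeder cells. FAIRE-seq, which sequences DNA that escapes formaldehyde crosslinking to protein and so samples nucleosome-poor sites, was applied to cells given DMSO for 16 h and to cells given 500 nM of the topoisomerase II inhibitor ICRF-193 for 16 h, and an input library was made as well. There was 1 sample in each of the 3 groups. The list analysed assigns no interval to a sample, so no value below compares ICRF-193 with DMSO, no replicate spread exists, and the read depth behind an interval is unknown.

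Each locus is a long array of gene segments. In developing lymphocytes the RAG recombinase joins a variable (V) segment, in some loci a diversity (D) segment, and a joining (J) segment, upstream of a constant (C) region exon cluster. Embryonic stem cells do not rearrange these loci and keep them in germline order. V segments have promoters that are active in lymphocytes, and enhancers of the loci lie mainly near the constant regions.

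The RefSeq table of assembly GRCm38.p6 was used for the names and the order of genes only. Igh has 183 V segments in it, of which 63 are pseudogenes, with 20 D segments (10 pseudogenes), 4 J segments and 8 constant regions. The constant regions lie on the low-coordinate side of all 183 V segments. The next protein-coding gene on that side is Tmem121, which encodes a transmembrane protein, and Zfp386, a zinc finger gene, follows the last V segment. Adam6a and Adam6b, genes of sperm proteins needed for male fertility, sit inside the array. Igk has 162 V segments (60 pseudogenes), 5 J segments and 1 constant region, which lies on the high-coordinate side next to Rpia, the gene of the sugar phosphate enzyme ribose 5-phosphate isomerase A. Tcrb has 35 V segments (13 pseudogenes), 2 D segments, 14 J segments (1 pseudogene) and 2 constant regions. Of its V segments 34 lie below the constant regions and 1, Trbv31, above them. Tcrb also contains 13 other protein-coding genes, among them trypsinogen genes such as Prss1, Prss2 and Try4, and Ephb6, an Eph receptor gene, follows it. Tcra-Tcrd has 136 V segments (17 pseudogenes), 62 J segments (9 pseudogenes), 2 D segments and 2 constant regions. It is preceded by olfactory receptor genes, some of which lie between its first V segments, and is followed by Dad1, a widely expressed gene of a subunit of the oligosaccharyltransferase. The bounds used here are round numbers that were not checked against an mm9 annotation, so they may take in neighbouring sequence or leave out segments. No interval was assigned to a gene or segment, and the V end and constant-region end of a locus are named from the order of the genes only.

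As whole stretches, the loci were not unusually poor in intervals when set among autosomal windows of 1 Mb. Together they held 93.4 intervals per Mb (95% exact Poisson interval 87.4 to 99.8, 9.6 Mb), and the median of 2425 autosomal windows of 1 Mb was 92. The autosomes as a whole held more, 143 per Mb, a mean that windows with many intervals raise above the median. Igh and Igk were almost equal, at 86.5 (76.4 to 97.4) and 86.2 (76.6 to 96.6) intervals per Mb, or 0.940 and 0.937 times the median window. Tcra-Tcrd was the densest, at 135 per Mb (120 to 151), 1.46 times the median window. Tcrb was the sparsest, at 44.4 per Mb (31.8 to 60.5), 0.483 times the median window. The order was thus Tcra-Tcrd, then Igh and Igk, which did not differ beyond their intervals, then Tcrb. All 4 loci were below the 143 per Mb of the autosomes as a whole, which only the interval of Tcra-Tcrd included. All 4 loci lay within the middle range of the genome, since the lower and upper quartiles of the windows were 35 and 206. The share of windows with a lower count was 60.2% for Tcra-Tcrd, 48.1% for both Igh and Igk, and 30.7% for Tcrb. These windows differ in length from the loci. Among autosomal windows of the length of the locus, placed every 100 kb, the share was 57.9% for Tcra-Tcrd and 38.4% for Igh. For Igk it was 37.7% and for Tcrb 31.5%. Poisson intervals cover counting error only. Window counts had a variance of 151 times the mean, so these intervals are far too narrow as a measure of how density varies along a chromosome.

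**Figure D1:**
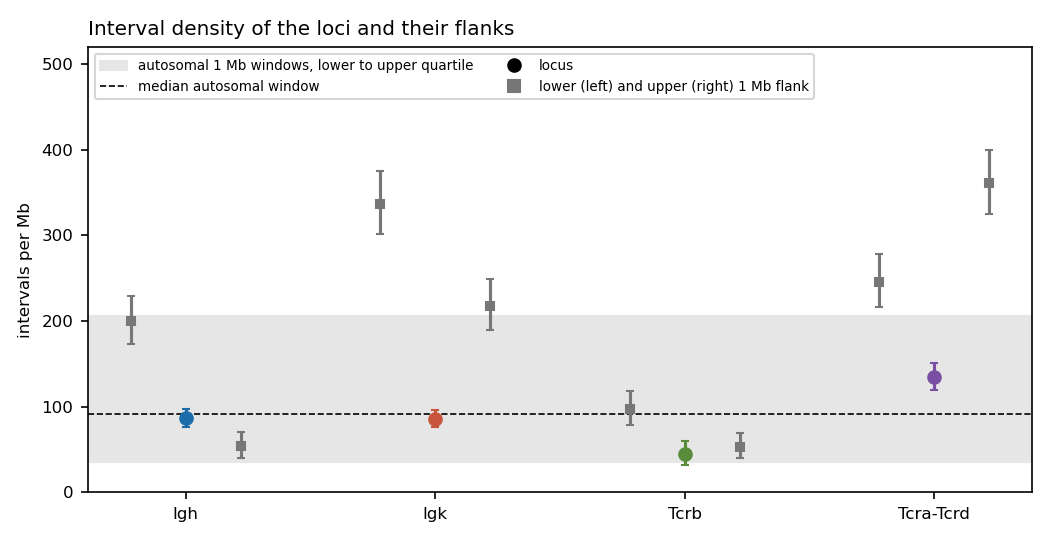
Intervals per Mb (vertical axis) in each locus (coloured circles) and in its lower and upper 1 Mb flanks (grey squares), with 95% exact Poisson bars for counting error. The dashed line is the median autosomal 1 Mb window (92) and the grey band spans the quartiles (35 to 206). Igk and Tcra-Tcrd lie below both of their flanks, Igh lies between its flanks, and the bars of Tcrb overlap those of its upper flank.

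Against their own surroundings, however, the loci were sparse. The 8 flanks of 1 Mb held 1566 intervals, or 196 per Mb, 2.13 times the median window. Igk had the lowest ratio, 0.311 times the density of its 2 flanks combined (95% exact binomial interval of the ratio 0.269 to 0.358), which held 337 and 218 intervals per Mb. Tcra-Tcrd had 0.443 times the density of its flanks (0.384 to 0.510), at 246 per Mb below and 361 per Mb above. Both loci were less dense than either flank alone. Tcrb had 0.593 times the density of its flanks (0.407 to 0.845). Its lower flank held 97 per Mb, and its upper flank, at 53.0 per Mb (39.7 to 69.3), had an interval that overlapped that of the locus. Igh had 0.681 times the density of its flanks (0.571 to 0.811), but the 2 sides differed: the lower flank, on the constant-region side, held 200 per Mb, and the upper flank, on the V side, held 54.0 per Mb (40.6 to 70.5), which was below the locus itself.

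A ratio below 1 to the flanks is not rare along the genome. Among all autosomal windows of the same length as the locus, placed every 100 kb, 7.71% had a lower ratio to their flanks than Igk and 18.2% a lower one than Tcra-Tcrd. For Igh the share was 30.8% and for Tcrb 34.9%. The ratio stayed below 1 in each of the 4 loci under all 9 alternatives tried. Its size did depend on the length of the flanks. Tcrb came to 0.946 with flanks of 0.5 Mb and to 0.268 with flanks of 2 Mb, and Igk to 0.203 with flanks of 0.5 Mb.

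The mean of each locus hid a strongly uneven layout, in which a few 100 kb bins carried much of the total and most others held few intervals. The 3 fullest bins held 43.3% of the intervals of Igh (31 bins), 43.0% of those of Igk (34 bins), 46.3% of those of Tcra-Tcrd (22 bins) and 72.5% of those of Tcrb (9 bins). The median bin held 4 intervals in Igh, 4.5 in Igk, 3 in Tcrb and 7 in Tcra-Tcrd, against 6 among 24161 autosomal bins. No interval at all was listed in 13 of the 96 bins of the loci (13.5%). That is close to the 15.4% of all autosomal bins with no interval, and above the 5 of 80 bins (6.25%) of the flanks. With 0.2 Mb taken off each end, the loci fell to 74.1 (Igh), 75.0 (Igk), 36.0 (Tcrb) and 83.9 (Tcra-Tcrd) intervals per Mb. The 4 values of the inner loci were 0.805, 0.815, 0.391 and 0.912 times the median window. Trimming removed 44.4% of the short Tcrb locus. Tcra-Tcrd went from above to below the median window, and its ratio to its flanks from 0.443 to 0.276.

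**Figure D2:**
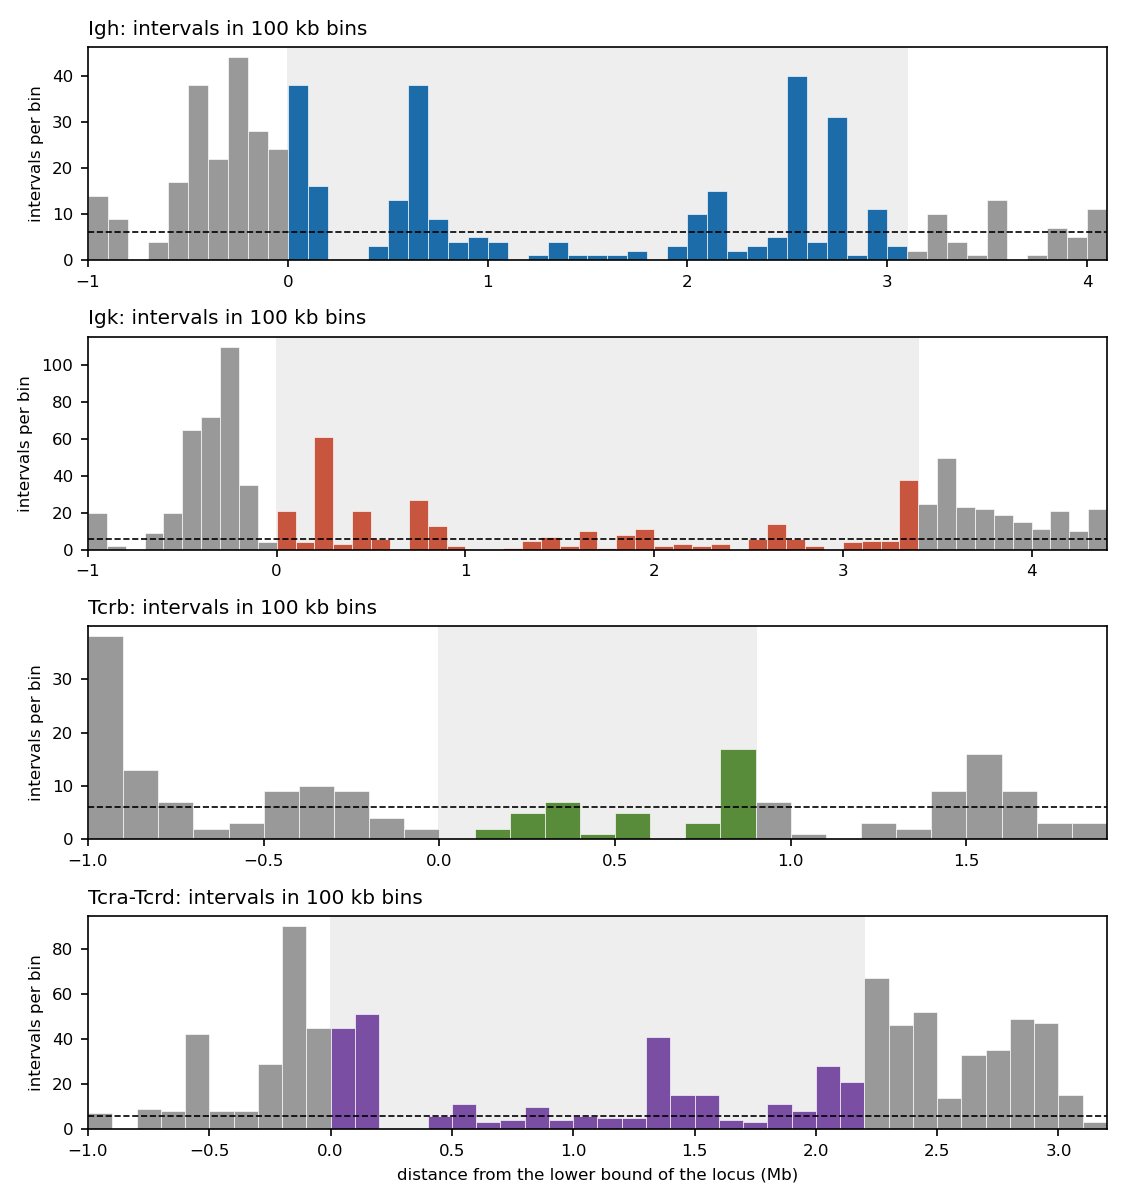
Number of intervals per 100 kb bin (vertical axis) against the distance from the lower bound of the locus in Mb, 1 panel per locus with its own vertical scale. The shaded, coloured part is the locus and the grey bars are its 1 Mb flanks; the dashed line is the median autosomal bin (6). Isolated full bins, such as the 61 intervals of Igk between 0.2 and 0.3 Mb, stand among bins at or below the dashed line.

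Igh had few intervals in its middle and most of them in a few bins on either side of it. From the constant-region end upward, its 5 parts of 620 kb each held 73, 57, 10, 35 and 93 intervals. The middle part, at 115540001 to 116160000, had 16.1 intervals per Mb, no high-score interval (the top 10% of the list by score, at or above 0.0237) and no interval of at least 200 bp. Intervals covered 0.123% of its bases. The highest score there, 0.0179, was well under that threshold. The fullest bins were 116800001 to 116900000 with 40 intervals, and 114300001 to 114400000 and 114900001 to 115000000 with 38 each. Intervals covered 5.36% of the bases of the first of these bins.

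The longest stretch of Igh with no interval was close to the constant-region end, at 114461264 to 114723412 (262 kb). It began 161 kb above the lower bound, and 621 stretches on the autosomes were longer. The bin with 38 intervals at the lower bound lay before it and held 7 of the 18 high-score intervals of the locus. The highest score of Igh was 0.0626, or 4.87 times the lowest score of the list. It belonged to an interval of 517 bp at 117285554 to 117286070, 114 kb from the upper bound, on the V side. Whether that interval lies among the V segments or in sequence beyond them was not determined. The second score, 0.0459, was that of an interval of 776 bp at 114393934 to 114394709, which was also the widest of the locus. An interval of 312 bp at 114313377 to 114313688 came next (0.0351). All 3 lay within 0.2 Mb of a bound. Those 2 end stretches make up 12.9% of the length of Igh, and they held 25.4% of its intervals and 9 of its 18 high-score intervals.

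Igk was densest at its far V end, the end away from the constant region. Its 5 parts of 680 kb held 116, 44, 44, 30 and 59 intervals in order of position, the last being the part with the constant region. The first part, 67400001 to 68080000, had 27 of the 43 high-score intervals of the locus. A single bin, 67600001 to 67700000, gave 61 intervals, 15 of them high-score, and intervals covered 13.9% of its bases. Of all autosomal bins 95.8% held fewer intervals. Within that bin, a run of 23 intervals separated by at most 500 bp, from 67626374 to 67633834, covered 5807 of 7461 bp. It contained the widest interval of the locus, of 1778 bp at 67632041 to 67633818, whose score was 0.0288.

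The highest score in the 4 loci was in the same part of Igk. It was 0.146, or 11.3 times the lowest score of the list, for an interval of 879 bp at 67961756 to 67962634, and 194 autosomal intervals scored higher. This interval stood alone: the nearest listed neighbour was 6733 bp away, and the second longest empty stretch of the locus, 209 kb from 67983918 to 68192983, began above it. The next scores were 0.0673 at 70793943 to 70794609 (667 bp), only 5.72 kb inside the upper bound, and 0.0612 at 67614345 to 67614820 (476 bp). At the constant-region end, the last bin, 70700001 to 70800000, held 38 intervals, of which 8 were high-score. The 5 bins below it held 0 to 5 intervals each. The longest empty stretch of the locus, 68390822 to 68618525 (228 kb), was an inner one, and 24.2% of the bases of Igk were in empty stretches of at least 100 kb.

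Tcrb held few intervals over most of its length, and its constant-region end carried 20 of the 40. The 5 parts of 180 kb held 2, 9, 7, 2 and 20 intervals. The first interval of the locus lay 144 kb above the lower bound. The fullest bin, 41500001 to 41600000, had 17 intervals, 4 of them high-score; without it the locus fell to 0.312 times the median window and 0.383 times its flanks. The highest score, 0.0370, was that of the widest interval, of 699 bp at 41508203 to 41508901, 91.4 kb from the upper bound. It formed, with a neighbour of score 0.0274, a region of 1350 bp. The next scores were at 41087052 to 41087314 (263 bp, 0.0327) and 41005652 to 41005871 (220 bp, 0.0315), in the third and the second of the 5 parts. The former lay 18615 bp from any other interval. The longest empty stretches between intervals of the locus were 41293729 to 41427642 (134 kb) and 40843790 to 40976843 (133 kb). They lay above and below these 2 sites. The empty stretch from the lower bound to the first interval, 144 kb, was longer than either. Empty stretches of at least 100 kb took up 45.6% of the locus, the highest share of the 4, against 31.8% of the span of the autosomes. With 40 intervals, each share of Tcrb has a wide error.

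Tcra-Tcrd had intervals along most of its length: 2 of its 22 bins were empty, and they lay next to each other. Its 5 parts of 440 kb held 97, 33, 21, 75 and 70 intervals, the last with the constant region of the alpha chain. Only 10.6% of its bases were in empty stretches of at least 100 kb. These bases formed 1 stretch, 52966320 to 53200106 (234 kb), which began inside the fullest bin of the locus, 52900001 to 53000000 with 51 intervals. The bins on the lower bound and next to it held 45 and 51 intervals. The first part, the far V end by the order of the genes, thus held 32.8% of the intervals. Whether the intervals of these bins lie in the locus or in neighbouring sequence was not determined.

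The strongest site of Tcra-Tcrd lay in the fourth of its 5 parts. An interval of 1681 bp at 54196380 to 54198060 had the highest score of the locus, 0.0776 or 6.03 times the lowest score of the list, and was its widest interval. It was 1 of 8 intervals in a region of 2826 bp, of which 2249 bp were covered. The third score, 0.0505, was that of an interval of 1006 bp at 54182204 to 54183209, in a run of 14 intervals over 2989 bp. Both were in the bin 54100001 to 54200000, which held 41 intervals, 7 of them high-score, and the stronger of them lay 803 kb from the upper bound. The second score, 0.0531, was at 53342381 to 53342924 (544 bp), in the second of the 5 parts. Toward the constant-region end and Dad1, the bins 54800001 to 54900000 and 54900001 to 55000000 held 28 and 21 intervals, with 4 high-score intervals each.

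**Figure D3:**
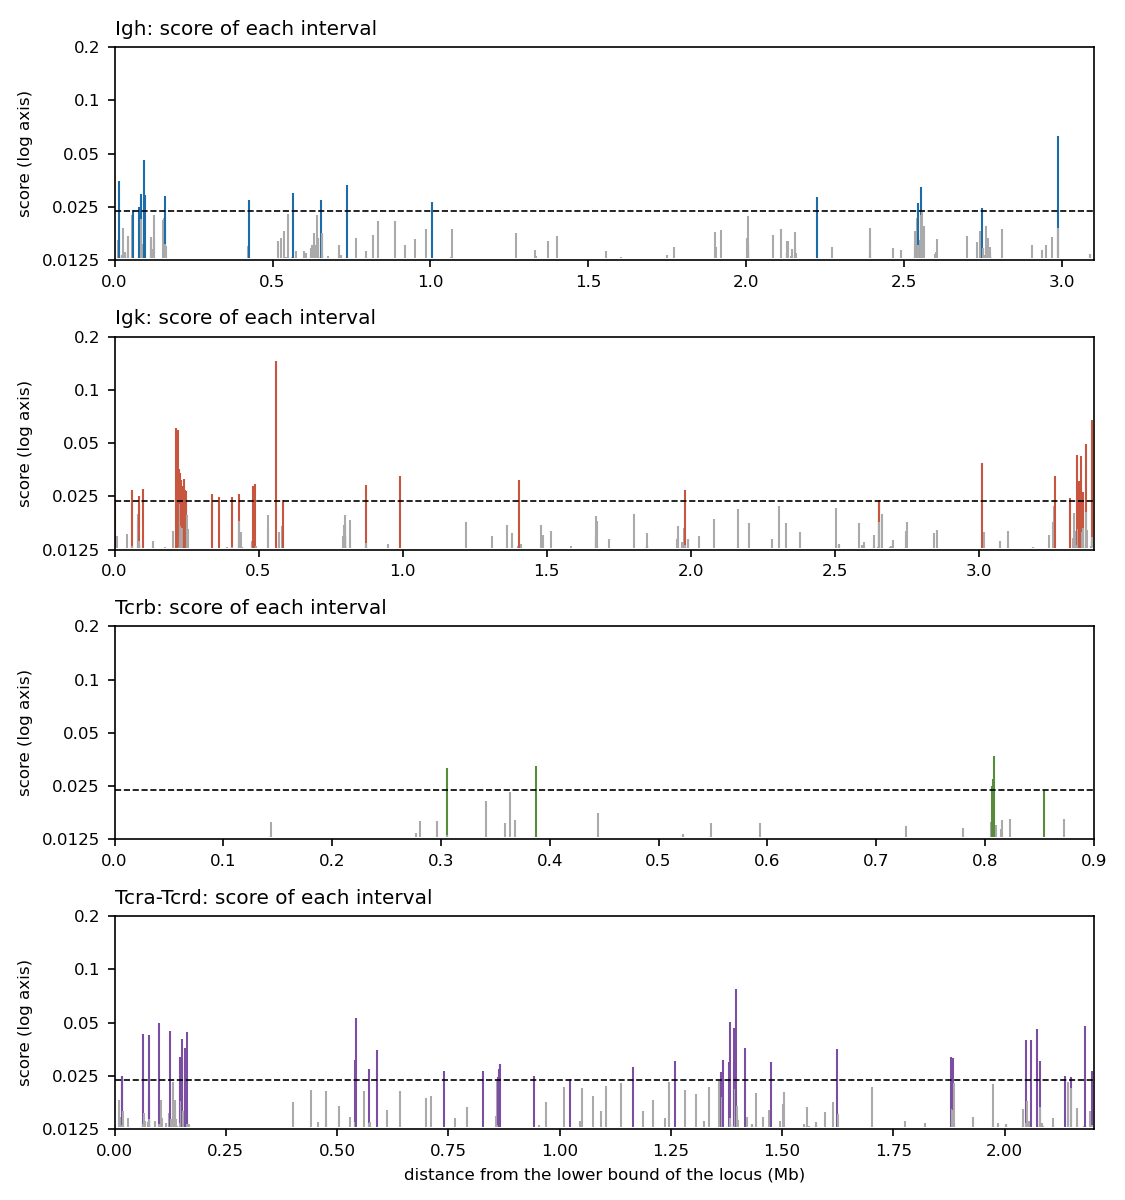
Score of each of the 897 intervals (vertical log axis, drawn from near the lowest score of the list) against the distance from the lower bound of the locus in Mb. Coloured lines are high-score intervals, at or above the dashed line (0.0237), and grey lines the others. The isolated line of Igk that reaches 0.146 is the highest of the 4 loci, and Igh has a stretch of over 1 Mb in its middle with no coloured line.

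The constant-region end did not stand out in the same way in each locus. In Tcrb it was the densest of the 5 parts, at 111 intervals per Mb against 11.1 to 50.0 in the others. In Igh, at 118 per Mb, it came second to the V end with 150, and in Igk, at 86.8, second to the far V end with 171. In Tcra-Tcrd, at 159, it ranked behind the first part with 220 and the fourth with 170. The least dense part was an inner one in Igh (the third, 16.1 per Mb), Igk (the fourth, 44.1) and Tcra-Tcrd (the third, 47.7). In Tcrb the first and the fourth part shared the lowest value, 11.1. These parts are equal divisions of the bounds and not the borders of V, D, J and C segments, and they may take in neighbouring sequence. The 100 kb bin at the constant-region bound held 38 of the 73 intervals of that part in Igh, and 38 of 59 in Igk. Whether those intervals lie in the locus or in neighbouring sequence was not determined.

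**Figure D4:**
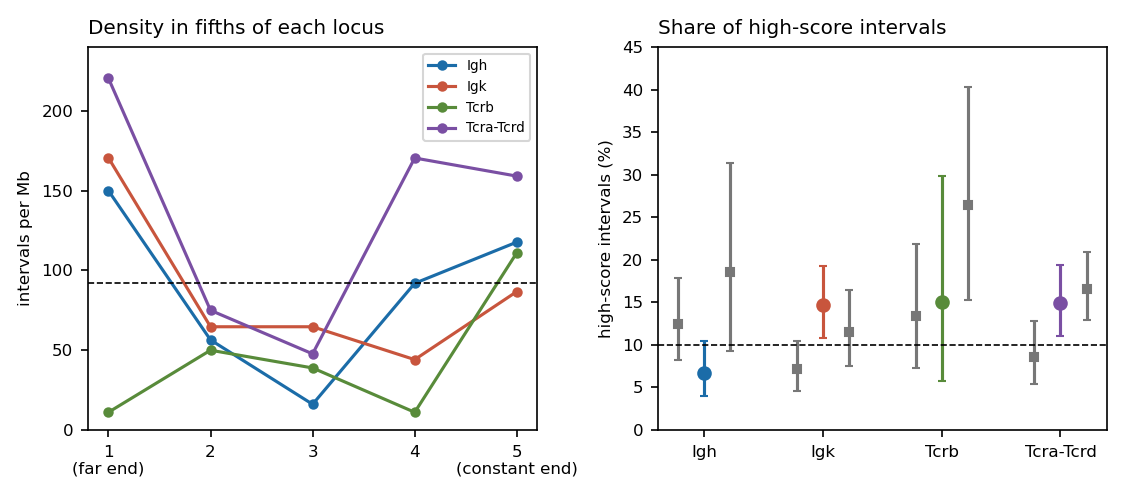
Left, intervals per Mb in 5 equal parts of each locus, ordered from the far V end (1) to the constant-region end (5), with the median autosomal window (92) as a dashed line. Right, percent of intervals that were high-score in each locus (circles) and its lower and upper flank (grey squares), with 95% exact binomial bars and the autosomal share (9.94%) as a dashed line. Inner parts of Igh, Igk and Tcra-Tcrd dip below the dashed line, and among the loci, with all their bins, Igh alone has a lower share of high-score intervals than 9.94%.

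The loci also differed in what kind of interval they held. Of the 897 intervals 111 were high-score, or 12.4% (95% exact binomial interval 10.3 to 14.7), where 9.94% of all autosomal intervals were. The share was 14.7% in Igk (10.8 to 19.3), 14.9% in Tcra-Tcrd (11.0 to 19.4) and 15.0% in Tcrb (5.71 to 29.8), but 6.72% in Igh (4.03 to 10.4). With all bins, the interval of Igh did not overlap those of Igk and Tcra-Tcrd, and it includes the autosomal share. Without the bin of 61 intervals the share of Igk was 12.1% (8.17 to 17.0, 232 intervals). Without its fullest bin Tcra-Tcrd was at 15.5% (11.2 to 20.7), and Tcrb fell to 8.70% (1.07 to 28.0, 2 of 23 intervals), below the autosomal share. Igh without its fullest bin was at 7.02% (4.06 to 11.1, 228 intervals). With the fullest bins left out, the interval of Igh overlapped that of Igk but not that of Tcra-Tcrd. The intervals of shares, too, cover counting error only.

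Per Mb, high-score intervals numbered 5.81 in Igh, 12.6 in Igk, 6.67 in Tcrb and 20.0 in Tcra-Tcrd, against 9 in the median window. Relative to the median window this was 0.645, 1.41, 0.741 and 2.22 times. The autosomes as a whole held 14.2 per Mb, so Igk was above the median window but below this density, and only Tcra-Tcrd was above both. Low-score intervals, those below the median score of the list, were at 0.863, 0.799, 0.362 and 1.33 times their own median window of 46. On the autosomes as a whole low-score intervals numbered 71.6 per Mb, more than in any of the 4 loci. Igh was therefore the only one of the 4 loci in which high-score intervals were scarcer, relative to the genome, than low-score ones. Against the flanks the count of high-score intervals gave 0.332 for Igh (0.177 to 0.602), 0.516 for Igk (0.335 to 0.794), 0.494 for Tcra-Tcrd (0.334 to 0.721) and 0.494 for Tcrb (0.167 to 1.22). The ratio of Igh was thus lower than with all intervals (0.681, 0.571 to 0.811), and that of Igk higher (0.311, 0.269 to 0.358). In both loci the 2 error intervals overlapped.

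Wide intervals were about as common as elsewhere. A width of 200 bp or more was found for 22.1% of the intervals of the loci and for 20.0% of all autosomal intervals. The share was 24.9% in Igk, 24.7% in Tcra-Tcrd, 17.2% in Igh and 15.0% in Tcrb. The median width was 62 bp in Igk, 50 bp in Igh, 47 bp in Tcra-Tcrd and 106.5 bp in Tcrb, against 41 bp on the autosomes. Intervals covered 1.14% of the bases of the 4 loci: 0.894% of Igh, 1.17% of Igk, 0.492% of Tcrb and 1.70% of Tcra-Tcrd. The median window was 0.997% covered, the autosomes as a whole 1.64%, and the 8 flanks 2.41%. Tcrb was thus covered less than the median window. Tcra-Tcrd was covered more than it, but to about the same extent as the autosomes as a whole. Igk, Tcrb and Tcra-Tcrd were each covered less than either flank, while Igh was covered more than its upper flank (0.686%).

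At the 8 bounds, the nearest interval inside lay 1.46 to 144 kb from the bound and had a score of 0.0130 to 0.0243. The nearest interval outside scored 0.0129 to 0.0329. Whether reads could be aligned in the empty stretches was not tested. V segments resemble one another, and the cells are in part of the 129Sv background while mm9 represents C57BL/6J. The absence of an interval is therefore not a measure of closed chromatin.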

How the data were processed

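One list of potential FAIRE peaks from mouse embryonic stem cells was analysed. The submitters' processing notes name the build mm9 and the aligner Bowtie, and the name of the list names the peak program F-Seq. Settings, read filters, use of the input and which samples entered it are not given in the sources used. The score of each interval is the authors' deposited value on an unstated scale, and it was used only to rank and describe intervals within the list. The list gives starts counted from 0, and positions are printed counted from 1.

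An interval belonged to a locus, flank, bin (100 kb) or window (1 Mb) by its midpoint. Windows ran from the first to the last interval of each of the 19 autosomes. The ratio of a locus to its flanks has an exact binomial interval conditional on the total count; densities have exact Poisson intervals. Regions were intervals joined within 500 bp. With 1 list for the series there was no test between samples and no p-value. Regions named were the 3 highest-scoring intervals, the widest interval, the fullest bin and the longest empty stretch of each locus. Empty stretches were ranked only if they lay between intervals of the locus. Other bins and regions named were chosen after their values were seen. The loci and the lists were chosen with earlier results of these data known. Planned checks of marker genes and of recombination and receptor genes were not run, since an mm9 annotation was not used, so the cell type was not checked against its markers. Alternatives were score and width filters, joining, trimmed bounds, leaving out the fullest bin, other windows and other flanks. Python 3.11.15, pandas 2.3.3, numpy 2.4.6, scipy 1.17.1 and matplotlib 3.10.9 were used, and the procedures were tested on simulated data.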

Additional observations from a re-analysis of the deposited data

How the results depend on the processing

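The 4 loci gave 16 results, and 124 alternative values were computed for them. Of these, 74 stayed within the error of the reported value (within 1.5 times of it for covered bases), 49 moved and 1 reversed. In Tcra-Tcrd the 2 end stretches of 0.2 Mb made up 18.2% of the length and held 49.0% of the intervals. With these ends taken off, its density relative to the median window reversed to 0.912, while Igh moved to 0.805 and Igk to 0.815. Other values of that density were 0.824 (Igh), 1.19 (Igk) and 1.84 (Tcra-Tcrd) for intervals of at least 200 bp. In the top 10% by score they were 0.645 (Igh), 1.41 (Igk), 0.741 (Tcrb) and 2.22 (Tcra-Tcrd). Igk came to 1.05 at or above the median score and to 0.798 after joining. Windows of the same chromosome gave 1.25 (Igh), 1.15 (Igk) and 1.82 (Tcra-Tcrd), and windows of the length of the locus, an alternative chosen after seeing the data, 0.747, 0.734 and 1.21. Without the fullest bin it was 0.826 (Igh), 0.764 (Igk), 0.312 (Tcrb) and 1.27 (Tcra-Tcrd). Igh and Igk thus lay on either side of 1 depending on the setting.

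The ratio to the flanks stayed below 1 throughout. With flanks of 0.5 Mb it was 0.465 (Igh), 0.203 (Igk), 0.946 (Tcrb) and 0.343 (Tcra-Tcrd), and with flanks of 2 Mb 0.487 (Igh), 0.268 (Tcrb) and 0.514 (Tcra-Tcrd). For intervals of at least 200 bp it was 0.457 (Igh), 0.377 (Igk) and 0.317 (Tcrb), and in the top 10% 0.332 (Igh) and 0.516 (Igk). It was 0.362 for Igk at or above the median score, 0.512 for Tcra-Tcrd after joining and 0.276 for Tcra-Tcrd with trimmed ends. Without the fullest bin it was 0.253 (Igk), 0.383 (Tcrb) and 0.384 (Tcra-Tcrd). The share of high-score intervals, taken as the top 5%, was 1.87% (Igh), 6.14% (Igk) and 8.45% (Tcra-Tcrd), lower by construction. Covered bases fell to 0.485% (Igh) and 0.221% (Tcrb) for intervals of at least 200 bp, to 0.209% (Igh), 0.552% (Igk), 0.221% (Tcrb) and 0.826% (Tcra-Tcrd) in the top 10%, and to 0.258% in Tcrb without its fullest bin. The causes of the other changes were not tested. No paired analysis was possible because the list assigns no interval to a sample, and for the same reason leaving out a replicate was not run. Read depth is unknown, so no detection limit can be given.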

Other observations

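A stretch of Tcra-Tcrd held mostly single intervals, spaced more evenly than in most of the windows it was set against. In the 1 Mb from 53100001 to 54100000 of chromosome 14, joining within 500 bp left 45 regions, of which 38 (84.4%) were 1 interval each. The median distance between neighbouring midpoints was 17.6 kb, and the SD of these distances was 0.764 times their mean. That was the lowest such value among 3658 autosomal windows of 1 Mb, placed every 100 kb, with 35 to 55 regions. The window 0.1 Mb below it came second at 0.798. Both windows began inside the empty stretch of 52966320 to 53200106, which their distances therefore do not count. The third such window of Tcra-Tcrd, 52900001 to 53900000, held that whole stretch. Its value was 1.82, and 3100 of the 3658 windows were lower. The median over those windows was 1.39, and the median share of single-interval regions was 57.1%. Among the 10 windows of Igh with 35 to 55 regions the value was 1.08 to 1.94, and among the 3 of Igk 1.57 to 2.02. The evenness depended on the joining distance. With 5 kb in place of 500 bp the same window had 37 regions and a value of 0.591, and 984 of 8167 windows were lower. The stretch was chosen after its layout was seen, overlapping windows are not independent, and no cause was tested.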
